A study of Bos taurus with 12 samples.

Results

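The heat shock proteins and J-domain chaperones were the probes on a custom bovine array whose gene symbol begins with HSPA, HSPB, HSPD, HSPE, HSPH, HSP90, DNAJA, DNAJB or DNAJC. The array carried 72 such genes out of 17728 symbols, measured by 188 of its 61549 spots and resolved into 81 transcripts. Levels were measured in endometrial biopsies of old females (OF, n = 4), young females (YF, n = 4) and contemporary cows (n = 3), with 1 array per cow. The OF and YF were all Holstein somatic clones of a single donor cow, raised with standardised feed and housing. The OF were 13 to 14 years old and had never calved, and the YF were 4 to 5 years old and had calved once, more than a year before, so that age and parity cannot be told apart. The genotype, age and parity of the contemporary cows are not given in the sources used here. A contemporary cow, 1111, was left out because the labels say that she was excluded from the analysis. In all cows the oestrous cycle was synchronised and the biopsy taken on Day 15; for OF and YF it was intercaruncular tissue of the horn on the side of the corpus luteum. The study compared OF with YF to ask how ageing changes the endometrium.

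Heat shock proteins are molecular chaperones. HSP70 proteins (HSPA) bind unfolded stretches of other proteins in cycles of ATP hydrolysis, which J-domain proteins (DNAJA, DNAJB, DNAJC) start and HSP110 (HSPH1) helps to reset. HSP90 proteins finish the folding of client proteins such as steroid hormone receptors, HSPD1 and HSPE1 form the folding chamber of mitochondria, and small heat shock proteins (HSPB) hold damaged proteins in a soluble state without using ATP. Some members are made at all times, others are induced within minutes to hours of stress by heat shock factor HSF1, and several small heat shock proteins are abundant in muscle, where they protect the contractile and cytoskeletal filaments. In the uterus, muscle lies in the myometrium under the endometrium and in vessel walls.

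Because HSP70 genes resemble one another, the probe sequences show how far they can be told apart on this array. The closest probes of the constitutive HSPA8 and the inducible HSPA6, and of HSPA8 and HSPA1L, are aligned here as 60-base probes. Capitals mark the bases that differ within the shared stretch.
HSPA8 against HSPA6: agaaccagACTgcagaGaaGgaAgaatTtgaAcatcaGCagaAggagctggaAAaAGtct
HSPA6 against HSPA8: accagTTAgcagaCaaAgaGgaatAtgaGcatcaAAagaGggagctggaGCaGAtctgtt
HSPA8 against HSPA1L: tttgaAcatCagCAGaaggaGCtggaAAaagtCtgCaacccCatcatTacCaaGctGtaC
HSPA1L against HSPA8: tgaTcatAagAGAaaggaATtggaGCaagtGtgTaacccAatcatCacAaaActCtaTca
Over the 57 bases that both probes cover, HSPA8 and HSPA6 have 42 in common, and over 58 bases HSPA8 and HSPA1L have 41 in common. The one closer pair was DNAJB6 and DNAJB3, with 29 of 31 bases in common, and DNAJB3 was not well above background in any cow. The probes of HSPA1A, the major inducible HSP70, and of HSPB7, a small heat shock protein of muscle, formed no such pair with a probe of another member, and are given in full.
HSPA1A probe 1: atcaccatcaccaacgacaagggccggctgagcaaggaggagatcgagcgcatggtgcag
HSPA1A probe 2: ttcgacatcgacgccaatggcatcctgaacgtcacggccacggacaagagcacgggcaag
HSPB7 probe 1: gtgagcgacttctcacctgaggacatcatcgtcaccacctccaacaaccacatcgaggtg
HSPB7 probe 2: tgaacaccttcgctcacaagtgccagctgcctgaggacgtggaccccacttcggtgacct
HSPA1A stands next to HSPA1L on chromosome 23 (27331773 to 27333698 and 27334344 to 27338328), 645 bases apart, in the assembly UMD3.1, which gives every position here. Mammals carry a near-identical second copy of HSPA1A that has no symbol among the members, so the value printed for HSPA1A may hold both. Probes of DNAJA1, DNAJA2, DNAJA3 and DNAJC8 shared a run of 25 bases with a transcript without a symbol elsewhere on the array, and their values are uncertain for that reason.

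A level is the log2 intensity minus the 75th percentile of its array, so that 0 is that percentile. It was averaged over the probes of a transcript, and a gene with more than 1 transcript is given by the one with the highest mean. On the 12 arrays the 75th percentile ranged from 968 to 1597 intensity units, lowest in OF 2258, and between 71.6% and 74.9% of spots were well above background with 0 saturated. Of the 81 member transcripts, 70 were well above background in all 11 cows and 71, of 63 genes, were tested between OF and YF. Epithelial markers (9 of 10 on the array) and stromal markers (10 of 10) were well above background in all 11 cows. OF 2258 and OF 0234 stood apart from the other cows in smooth muscle markers: the mean of the 16 markers on the array, each taken relative to its mean over 11 cows, was 3.78 in 2258 and 2.18 in 0234, and ranged from -0.94 to 3.78 in OF, from -1.27 to 0.07 in YF and from -0.90 to -0.45 in contemporary cows. OF 2258 also had the lowest epithelial score (-1.90) and ciliated cell score (-3.32) and the highest immediate early gene score (3.14) of the 11 cows. In such bulk tissue fewer cells of a type and less RNA per cell cannot be told apart. Striated muscle markers, a list of 14 of which 6 were tested, were also highest in these 2 cows, with a score of 1.96 in 2258 and 0.98 in 0234. For the results that turn on these cows, values without them are given as well. All 3 contemporary cows used lay on slide 2, with 3 of the OF and 2 of the YF, and the other OF and YF lay on slide 1.

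Small heat shock genes made up 4 of the 5 members with the largest positive log2 differences between OF and YF, and HSPB8 led them. All 6 small heat shock genes tested had a higher mean in OF, though HSPB11 only by a log2 difference of 0.001. Of all tested transcripts 51.7% had a log2 difference above 0. The median of the 6 genes was 0.69, and 1 of them, HSPB8, reached an unadjusted p of 0.05. Between OF and YF limma called 478 of 19755 transcripts at an unadjusted p of 0.05 (2.42%), 283 of them higher in OF (1.43%), and among the 71 member transcripts it called HSPB8 alone (1.41%). After Benjamini-Hochberg adjustment over all 19755 transcripts, limma called 0 (0%) of all transcripts and 0 members, and the smallest adjusted p of a member was 0.999.

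HSPB8 (chromosome 17, 58405437 to 58418688) works with the co-chaperone BAG3 in clearing damaged filament proteins. Its log2 levels were 3.07, 4.25, 3.34 and 5.68 in OF 0233, 0234, 0245 and 2258, and 1.60, 2.16, 3.25 and 3.22 in YF 1069, 1070, 1072 and 1127. In contemporary cows 1068, 1128 and 1129 they were 3.23, 4.03 and 2.16. The groups overlapped, since OF 0233 lay below the 2 highest YF, while OF 0234 and 2258 were above every other cow. The mean log2 level of the 4 OF was 4.08 (SD 1.18) and that of the 4 YF was 2.56 (SD 0.82), which gives a log2 difference of 1.53 with a standard error of 0.61, or 2.89-fold. The unadjusted limma p was 0.036 and the exact two-sided permutation p, whose smallest possible value with 4 cows against 4 is 0.0286, was 0.114. Both probes of HSPB8 gave nearly the same log2 difference, 1.505 and 1.553. Without OF 2258 the log2 difference was 0.998, without both 2258 and 0234 it was 0.65, and with the smooth muscle score as a covariate it was 0.62; none of these reached an unadjusted limma p of 0.05. Within slide 1 it was 0.64 and within slide 2 it was 1.92, and with the slide as a block it was 1.47 and missed the same threshold.

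HSPB7 (chromosome 2, 136635160 to 136637353), named for its abundance in heart and vessel muscle, had log2 levels of -6.40, -5.59, -5.70 and -4.79 in OF and of -6.43, -6.02, -5.88 and -7.44 in YF, in the same order of cows. Contemporary cows were at -5.45, -6.54 and -6.44. OF 0234, 0245 and 2258 lay above all YF and OF 0233 lay among them, and the log2 difference was 0.82 with a standard error of 0.42 (unadjusted limma p = 0.085, exact permutation p = 0.143). Without 2258 the log2 difference was 0.55. Its 2 probes, printed above, gave log2 differences of 0.59 and 1.06, and after normexp background correction with quantile normalization the log2 difference of HSPB7 was 0.18. HSPB6, a regulator of smooth muscle relaxation, was at -0.04, 0.79, 0.62 and 1.48 in OF and at 0.27, 0.26, 0.02 and -0.28 in YF. Here too all OF except 0233 exceeded all YF, with a log2 difference of 0.65 (standard error 0.31, exact permutation p = 0.114) that was 0.39 without 2258. HSPB2, which binds myotonic dystrophy protein kinase in muscle, was at -0.26, 0.63, -0.25 and 1.96 in OF and at 0.46, -0.51, -0.30 and -0.52 in YF. OF 2258 and 0234 again held the highest levels of HSPB2, the other OF lay within the range of YF, and the log2 difference of 0.74 (exact permutation p = 0.171) was 0.26 without 2258 and -0.03 without both.

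**Figure D1:**
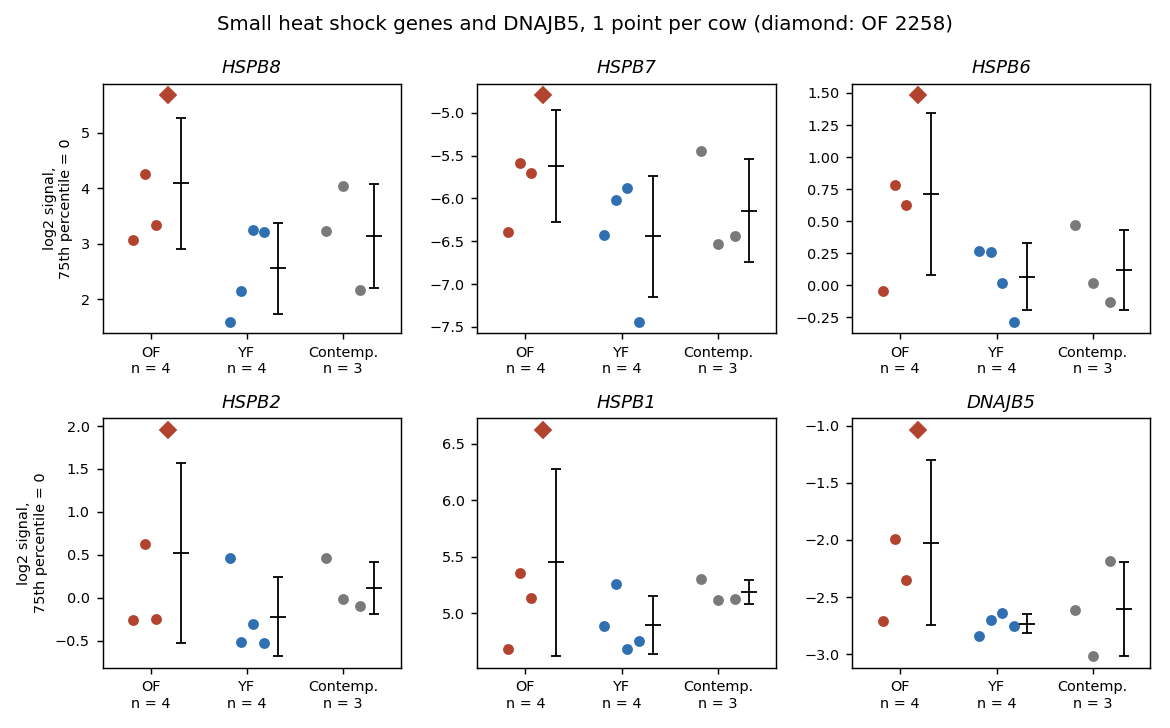
Log2 level (0 is the 75th percentile of the array) of 5 small heat shock genes and DNAJB5 in each cow, with points for OF (n = 4), YF (n = 4) and contemporary cows (n = 3) and bars for the group mean ± SD. OF 2258, drawn as a diamond, is the highest cow in all 6 panels, and the OF and YF points overlap in each.

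HSPB1, a stress-inducible small heat shock protein that binds actin, was at 4.68, 5.36, 5.13 and 6.63 in OF, at 4.89, 5.26, 4.68 and 4.75 in YF, and at 5.31, 5.12 and 5.13 in contemporary cows. Its log2 difference between OF and YF of 0.55 (exact permutation p = 0.257) was 0.16 without 2258. The J-domain protein DNAJB5 (chromosome 8, 59688148 to 59695910) had a similar set of values, -2.71, -1.99, -2.35 and -1.04 in OF against -2.84, -2.70, -2.64 and -2.75 in YF. The YF lay within a narrow range and OF 0233 was inside it, while the other OF exceeded every YF, with a log2 difference of 0.71 (standard error 0.33, unadjusted limma p = 0.060, exact permutation p = 0.086). Without 2258 it was 0.38. HSPB11, an intraflagellar transport protein in spite of its symbol, had a log2 difference of 0.00. HSPB3 and HSPB9 were not well above background in any of the 11 cows.

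Of the muscle small heat shock list (HSPB1, HSPB2, HSPB3, HSPB6, HSPB7 and HSPB8), 5 of 6 genes were tested, all 5 had a log2 difference above 0, and their median was 0.74, against 0.01 over all 19755 transcripts. Without OF 2258 the median was 0.39, and 0 of the 5 reached an unadjusted limma p of 0.05. All 16 smooth muscle markers tested had a log2 difference above 0, with a median of 1.84, and 1 of them, TAGLN, reached an unadjusted limma p of 0.05. Without OF 2258 all 16 were still above 0, with a median of 0.96, and 0 reached that p. Of the 6 striated muscle markers tested 3 had a log2 difference above 0, with a median of 0.59, and of the 10 endothelial markers 8 did, with a median of 0.14. The levels of these small heat shock genes and of DNAJB5 rose with the smooth muscle score over all cows, although the score sets 2 cows apart. Over the 11 cows, Pearson's r with the score was 0.90 for DNAJB5, 0.89 for HSPB6, 0.88 for HSPB2, 0.83 for HSPB1, 0.77 for HSPB8 and 0.77 for HSPB7, and Spearman's rho was 0.72, 0.78, 0.69, 0.53, 0.64 and 0.80 in the same order. Over the 9 cows other than OF 0234 and 2258, r was 0.74 for HSPB7 and 0.52 for HSPB6, and it was 0.34 for HSPB2, 0.30 for DNAJB5, -0.00 for HSPB1 and 0.00 for HSPB8. The high r of HSPB1 and HSPB8 thus rested on those 2 cows, and that of HSPB2 and DNAJB5 largely did. It is given as a description, with no p, for some of 28 genes computed. A high r over the 11 cows was not particular to the small heat shock genes, since it was 0.80 for HSPA1A, 0.75 for HSPA6 and -0.80 for DNAJB13. For others it was near 0, such as HSPA9 (-0.07) and DNAJC3 (-0.02). Over the 9 cows other than OF 0234 and 2258, r was 0.22 for HSPA1A, -0.21 for HSPA6 and -0.76 for DNAJB13. With the score as a covariate, the log2 difference between OF and YF was 0.25 for HSPB7, 0.17 for HSPB6, -0.09 for HSPB2, -0.03 for HSPB1 and 0.16 for DNAJB5. The part of smooth muscle tissue in these differences was not tested.

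By fold change rank ordering statistics (FCROS), the ranking method named in the study's methods, 1300 of 26323 transcripts were called between OF and YF (4.94%), and 4 of the 81 member transcripts were called (4.94%). Over-expressed in OF were 757 transcripts of the array (2.88%) and 3 members, HSPB8 (f-value 0.997), HSPB7 (0.985) and HSPB6 (0.984). HSPB7 was not called after normexp or with the brightest probe. Under-expressed were 543 transcripts (2.06%) and 1 member, HSPA4L (f-value 0.00852), an HSP110-like protein of the cytosol. HSPA4L was well above background in 2 OF, 3 YF and 3 contemporary cows only and was therefore not tested by limma. Its log2 levels were -5.82, -6.77, -6.25 and -7.46 in OF and -6.37, -5.00, -6.48 and -4.97 in YF, overlapping ranges that include values near background. Without OF 2258 FCROS called 2 members, HSPB8 and HSPA12A, and without both 2258 and 0234 it called 0. The share of all transcripts that FCROS called without these cows is not given here, so these counts are a description only.

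Several inducible chaperones of the cytosol were highest in a single cow, OF 2258. HSPA1A, HSPH1, DNAJB1, DNAJB4 and HSPA6, which are induced by stress, and their partner HSPA8 were highest in OF 2258 by a wide margin, while the other OF lay at or near the levels of the YF. HSPA1A was at 1.48, 1.63, 1.74 and 2.98 in OF 0233, 0234, 0245 and 2258, and at 1.37, 1.67, 1.62 and 1.57 in YF. Contemporary cows were at 1.73, 1.58 and 1.70. The 10 cows other than 2258 thus lay between 1.37 and 1.74, and 2258 exceeded the highest of them by 1.24 on the log2 scale, or 2.36-fold. Both HSPA1A probes gave a log2 difference between OF and YF of 0.40 (exact permutation p = 0.314), and without 2258 it was 0.06.

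HSPA8, the constitutive HSP70 of the cytosol (chromosome 15, 34216278 to 34220705), was at 3.78, 3.60, 3.72 and 5.17 in OF and at 3.30, 3.84, 3.64 and 3.86 in YF. HSPH1, which resets HSP70 by exchanging its nucleotide, was at 1.81, 1.87, 2.04 and 3.38 in OF and at 1.68, 1.95, 1.40 and 2.48 in YF. The log2 differences of 0.40 in both genes (exact permutation p = 0.486 and 0.457) were 0.04 and 0.03 without 2258. DNAJB1, the main J-domain partner of inducible HSP70, was at 0.96, 0.45, 0.93 and 2.34 in OF, at 0.54, 0.40, 0.59 and 0.76 in YF, and at 1.21, 0.90 and 0.43 in contemporary cows. OF 2258 exceeded the highest other cow by 1.14 on the log2 scale, and the log2 difference between OF and YF of 0.60 (exact permutation p = 0.114) was 0.21 without her. DNAJB4, a near relative of DNAJB1, was at -1.55, -2.07, -2.08 and -0.01 in OF and between -1.97 and -1.59 in YF, so that its log2 difference of 0.35 turned to -0.12 without 2258. HSPA6, an HSP70 made only under stress in most tissues, was at -4.35, -4.10, -4.27 and -2.93 in OF and between -4.65 and -4.05 in YF, with a log2 difference of 0.48 that was 0.15 without 2258.

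**Figure D2:**
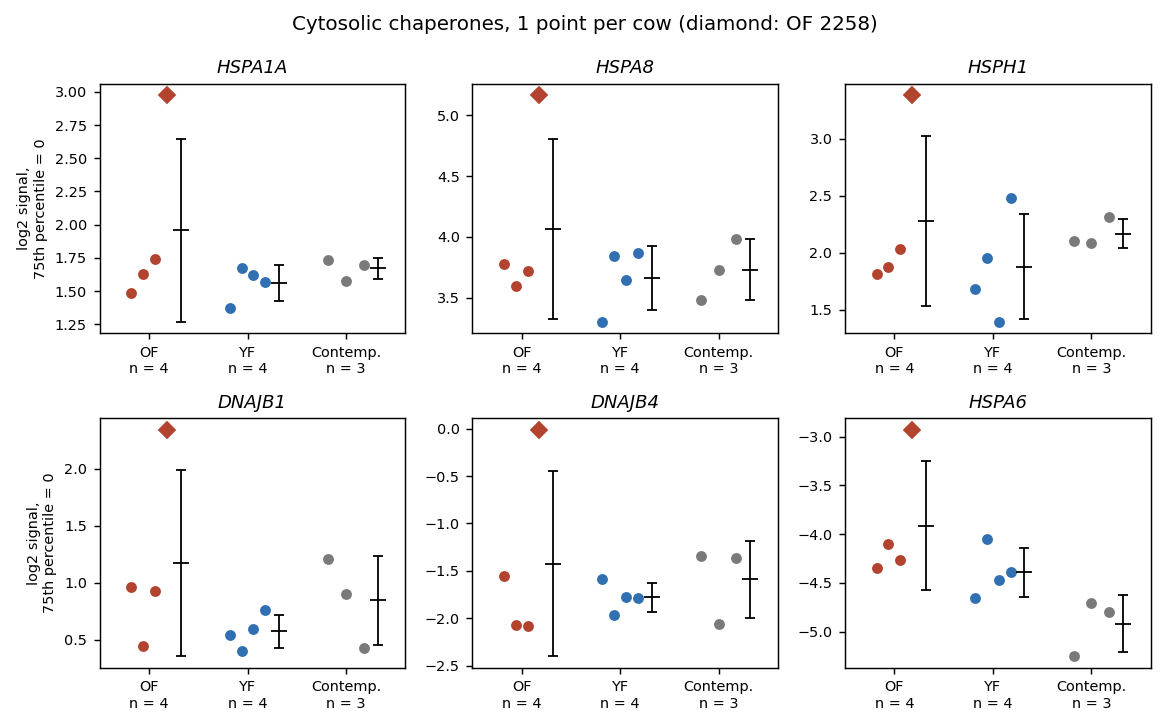
Log2 level (0 is the 75th percentile of the array) of 6 cytosolic chaperone genes in each cow, with points for OF (n = 4), YF (n = 4) and contemporary cows (n = 3) and bars for the group mean ± SD. In each panel OF 2258, drawn as a diamond, lies above the 10 other cows, and the other 3 OF lie at the levels of the YF or close to them.

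Other members of the list of inducible chaperones followed 2258 less closely. Whether stress induces each gene of the list was not tested here. HSP90AA1, the inducible cytosolic HSP90, was at 5.06, 5.14, 5.31 and 5.80 in OF and at 5.13, 5.23, 4.91 and 5.51 in YF, a log2 difference of 0.13 (exact permutation p = 0.543). DNAJA1 was at 2.11, 1.79, 1.60 and 3.09 in OF and at 1.63, 1.95, 2.08 and 2.48 in YF, and its log2 difference of 0.11 turned to -0.20 without 2258. DNAJA4 and HSPA1L were not high in 2258. DNAJA4 was at -3.66 there and between -4.33 and -2.62 in the other cows, and HSPA1L was at -4.68 there and between -5.32 and -3.60 in the others. Of the 10 genes tested from the inducible list, HSPA1L among them, 8 had a log2 difference above 0 with a median of 0.38. Without 2258 6 of 10 did, with a median of 0.02. None of the 10 reached an unadjusted limma p of 0.05 with or without her. Relative to the mean of each gene over 11 cows, the mean of the inducible list was 0.93 in 2258, ranged from -0.11 to 0.93 in OF, from -0.35 to 0.17 in YF, and from -0.19 to 0.08 in contemporary cows.

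OF 2258 was the highest of the 11 cows in 24 of the 63 genes (38.1%), against 23.7% of all transcripts, and the lowest in 11 (17.5%), against 21.0%. The immediate early genes, which respond to tissue handling as well as to signals, were also highest in this cow: their score ranged from -1.23 to 3.14 in OF, from -1.90 to 1.08 in YF and from -0.92 to 1.81 in contemporary cows, and all 12 tested had a log2 difference above 0 between OF and YF, 0 of them at an unadjusted limma p of 0.05. The score was high in contemporary cow 1068 (1.81) and YF 1070 (1.08) as well, whose inducible chaperone scores were -0.19 and -0.07. Smooth muscle markers, immediate early genes and inducible chaperones were therefore all high in 2258, and the part of the first 2 in the third was not tested. OF 0234, the second highest cow in smooth muscle markers, had an inducible chaperone score of -0.11 and an immediate early score of -1.23.

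The main constitutive members of the endoplasmic reticulum and of mitochondria lay close together in OF and YF. HSP90B1, the HSP90 of the endoplasmic reticulum, was at 4.59, 4.65, 4.77 and 4.65 in OF, at 4.63, 4.61, 4.57 and 4.61 in YF and at 4.58, 4.72 and 4.43 in contemporary cows, with a log2 difference of 0.06 (exact permutation p = 0.171). HSPA9, the HSP70 of mitochondria, was between 2.33 and 2.45 in OF and between 2.11 and 2.52 in YF, with a log2 difference of -0.01. Over the 71 tested members the median SD within groups was 0.28 on the log2 scale, against 0.33 over all tested transcripts. HSPD1 and HSPE1, which form the mitochondrial folding chamber and lie 152 bases apart on chromosome 2, had log2 differences of -0.06 and 0.01. In OF 2258 HSPD1 was the lowest of the 11 cows, at 3.18, and HSPE1 the highest, at 3.21 against 3.20 in the next cow.

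The symbol of the constitutive HSP90 of the cytosol, HSP90AB1, stood on the array at a transcript on chromosome X (130065242 to 130067460). Levels of this transcript were 0.45, 0.72, 0.40 and 1.46 in OF and 0.32, 0.81, 0.52 and 0.29 in YF. The log2 difference of 0.27 (exact permutation p = 0.400) was 0.04 without 2258. A further transcript described as HSP90-beta, without a symbol and so not a member, lies on chromosome 23 (17867543 to 17873174). Its levels ranged from -4.68 to -3.08 in OF and from -4.94 to -4.42 in YF. The log2 difference of 0.79 missed an unadjusted limma p of 0.05. Which of these transcripts comes from the HSP90AB1 gene was not tested. All values given for HSP90AB1 are those of the chromosome X transcript. HSPA4, an exchange factor for HSP70, had a log2 difference of 0.08, HSPA13 of -0.05 and HSPA14 of -0.06. HSPA12A, a distant HSP70 relative, was at -6.15, -6.46, -7.02 and -7.32 in OF and between -7.29 and -7.12 in YF, where it was well above background in 3 of 4 cows. It thus passed the filter on dim probes through the OF, where it is high, and its calls are a description only. OF 2258 was here the lowest OF, and the log2 difference was 0.46 (exact permutation p = 0.171) with all OF and 0.66 without 2258. In that comparison without 2258, limma called 478 of 19966 transcripts at an unadjusted p of 0.05 (2.39%), and HSPA12A was the 1 member called. With the smooth muscle score as a covariate it called 552 transcripts (2.79%) and 2 members, HSPA12A (log2 difference 0.71) and the dimmer transcript of DNAJC1, a J-domain protein of the endoplasmic reticulum. That transcript was high in OF 0233 alone, at -5.16 against -6.90 to -6.47 in the other cows, and its 2 probes gave log2 differences between OF and YF of 0.000135 and 0.94. The brighter transcript of DNAJC1 was not called.

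In the endoplasmic reticulum, where unfolded proteins induce their own set of chaperones, the group means of the following members lay close together as well. DNAJC3, an inhibitor of the stress kinase EIF2AK3, had a log2 difference of 0.15, DNAJB9 of 0.06 and DNAJB11 of -0.05. Their exact permutation p were 0.657, 0.886 and 0.657. Single cows varied more, since YF ranged from 0.49 to 1.32 in DNAJC3 and from 0.18 to 1.22 in DNAJB9. Without YF 1069 the log2 differences of DNAJC3 and DNAJB9 were -0.04 and -0.08. Of 7 members of the endoplasmic reticulum tested, 5 had a log2 difference above 0 with a median of 0.06. Of these 7, 0 reached an unadjusted limma p of 0.05. Mitochondrial members gave 7 of 11 above 0 with a median of 0.01, and the constitutive cytosolic list 4 of 7 with a median of 0.08. HSPA2 and HSPA5, the HSP70 genes of the testis and of the endoplasmic reticulum, were not found under their symbols and are not analysed here.

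**Figure D3:**
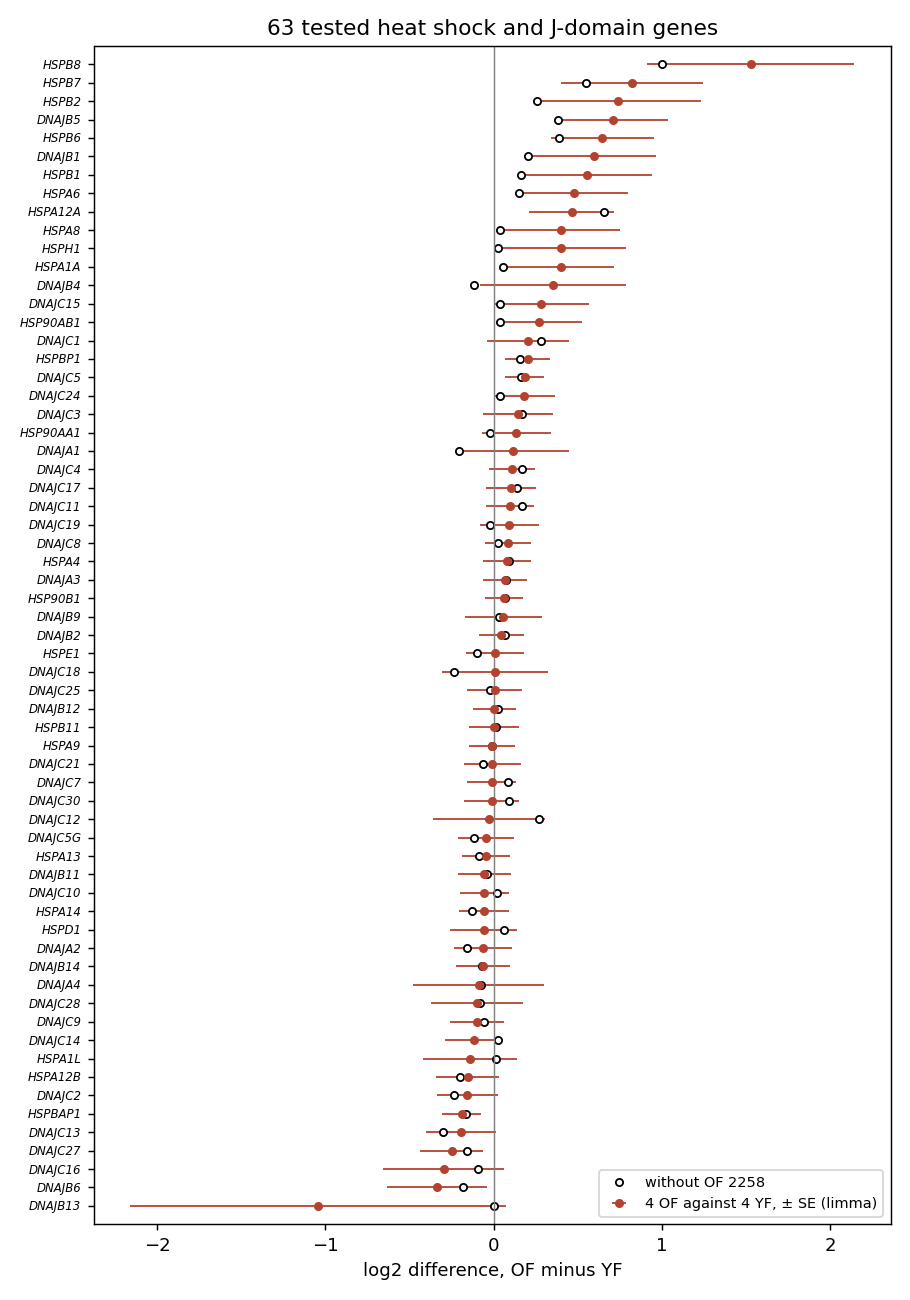
Log2 difference, OF minus YF, of the 63 tested genes in order of size; filled points with bars are the limma estimates ± SE from 4 OF and 4 YF, and open points are the estimates without OF 2258. The small heat shock genes HSPB8, HSPB7 and HSPB2 head the order and DNAJB13 ends it, and most open points of the upper 13 genes lie nearer to 0 than the filled ones, HSPA12A being the exception.

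The J-domain proteins were spread evenly around 0. Of the 4 DNAJA genes tested 2 had a higher mean in OF, of the 10 DNAJB genes 6, and of the 25 DNAJC genes 12, with median log2 differences of 0.00, 0.02 and -0.01. Over all families 42 of the 71 member transcripts (59.2%) had a log2 difference above 0, against 51.7% of all tested transcripts, and the median was 0.06 against 0.01. Without OF 2258 the median was 0.03 against 0.01. All OF lay above all YF in 184 of the 19755 transcripts (0.931%) and in 1 member, DNAJC5, the cysteine string protein of secretory vesicles. It was at -2.35, -2.35, -2.47 and -2.30 in OF and at -2.61, -2.55, -2.57 and -2.47 in YF, a log2 difference of 0.18 that did not reach an unadjusted limma p of 0.05. All OF lay below all YF in 118 transcripts (0.597%) and in 1 member, HSPBAP1, which binds HSPB1 and is no chaperone itself. HSPBAP1 was at -2.04, -1.99, -2.04 and -2.14 in OF and at -1.91, -1.85, -1.74 and -1.95 in YF, a log2 difference of -0.19 that did not reach it either. Both were named for this lack of overlap, which is no test of them.

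DNAJB13 (chromosome 15, 54180361 to 54192907) had the most negative log2 difference of all tested members, and it varied more between cows than any other. It is a J-domain protein of the radial spokes of cilia and sperm tails. Its log2 levels were -1.31, -1.29, -0.33 and -5.15 in OF, -1.83, -0.07, -2.66 and 0.65 in YF and -1.22, -0.22 and -0.11 in contemporary cows. OF 2258 was far below the other cows, and the log2 difference of -1.04 (standard error 1.12, exact permutation p = 0.543) was 0.00 without her. The level followed the mean of the 10 ciliated cell markers across the 11 cows, with Pearson's r = 0.99 and Spearman's rho = 0.96, and r = 0.97 without OF 2258 and YF 1127, the cows farthest from the median score. These are values of 1 RNA sample per cow, in which DNAJB13 and the markers share the same array. The ciliated score ranged from -3.32 to 0.46 in OF, from -1.34 to 1.73 in YF and from -0.06 to 1.33 in contemporary cows, and 0 of its 10 markers had a log2 difference above 0 between OF and YF; without 2258, 3 of 10 did. After DNAJB13 came DNAJB6, with a log2 difference of -0.34, DNAJC16 with -0.30, DNAJC27 with -0.25 and DNAJC13 with -0.19, none of them at an unadjusted limma p of 0.05. DNAJB6, which keeps polyglutamine proteins soluble and binds keratin, was at 1.35, 1.04, 1.36 and 0.62 in OF and between 0.74 and 2.09 in YF.

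**Figure D4:**
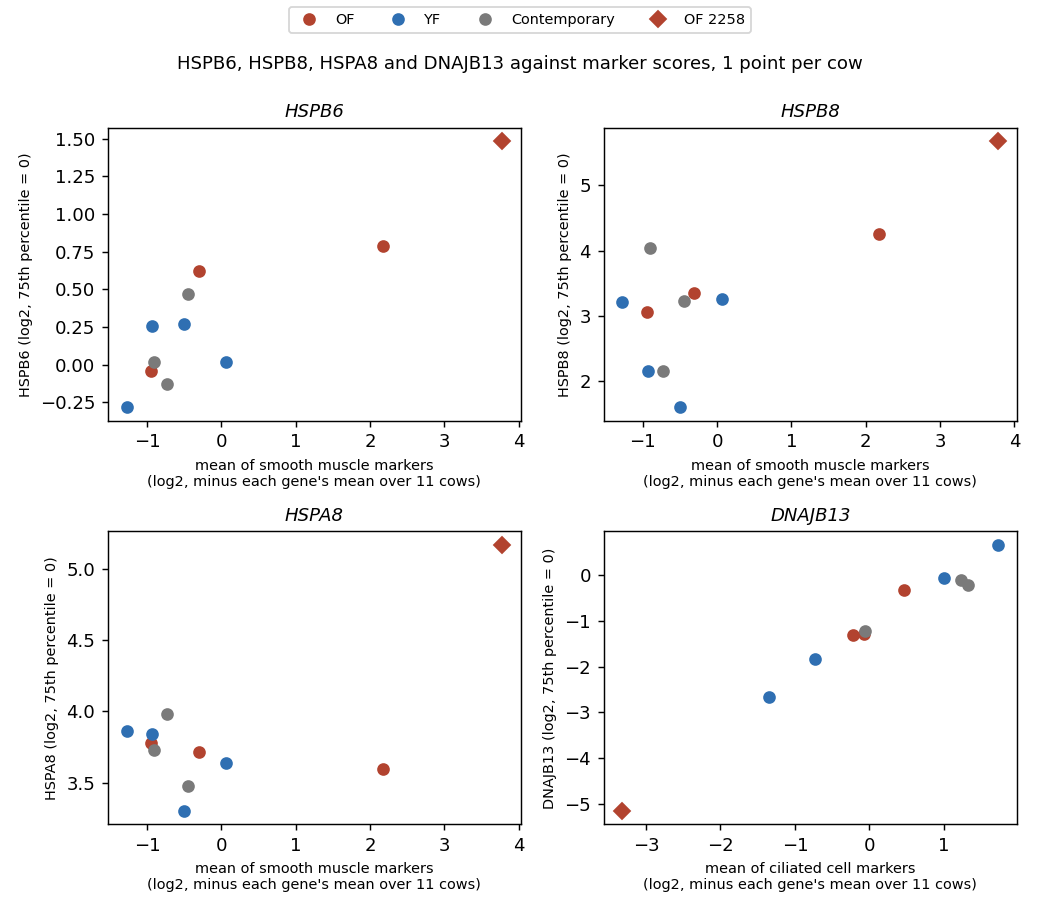
Log2 level of HSPB6, HSPB8 and HSPA8 against the mean of the smooth muscle markers, and of DNAJB13 against the mean of the ciliated cell markers, with 1 point per cow (4 OF, 4 YF, 3 contemporary cows). OF 2258, the diamond, is farthest right in the first 3 panels and lowest in the last; HSPA8 is high in that cow alone, and OF 0234, the second cow to the right, has an HSPA8 level of 3.60, within the range of the YF.

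**Figure D5:**
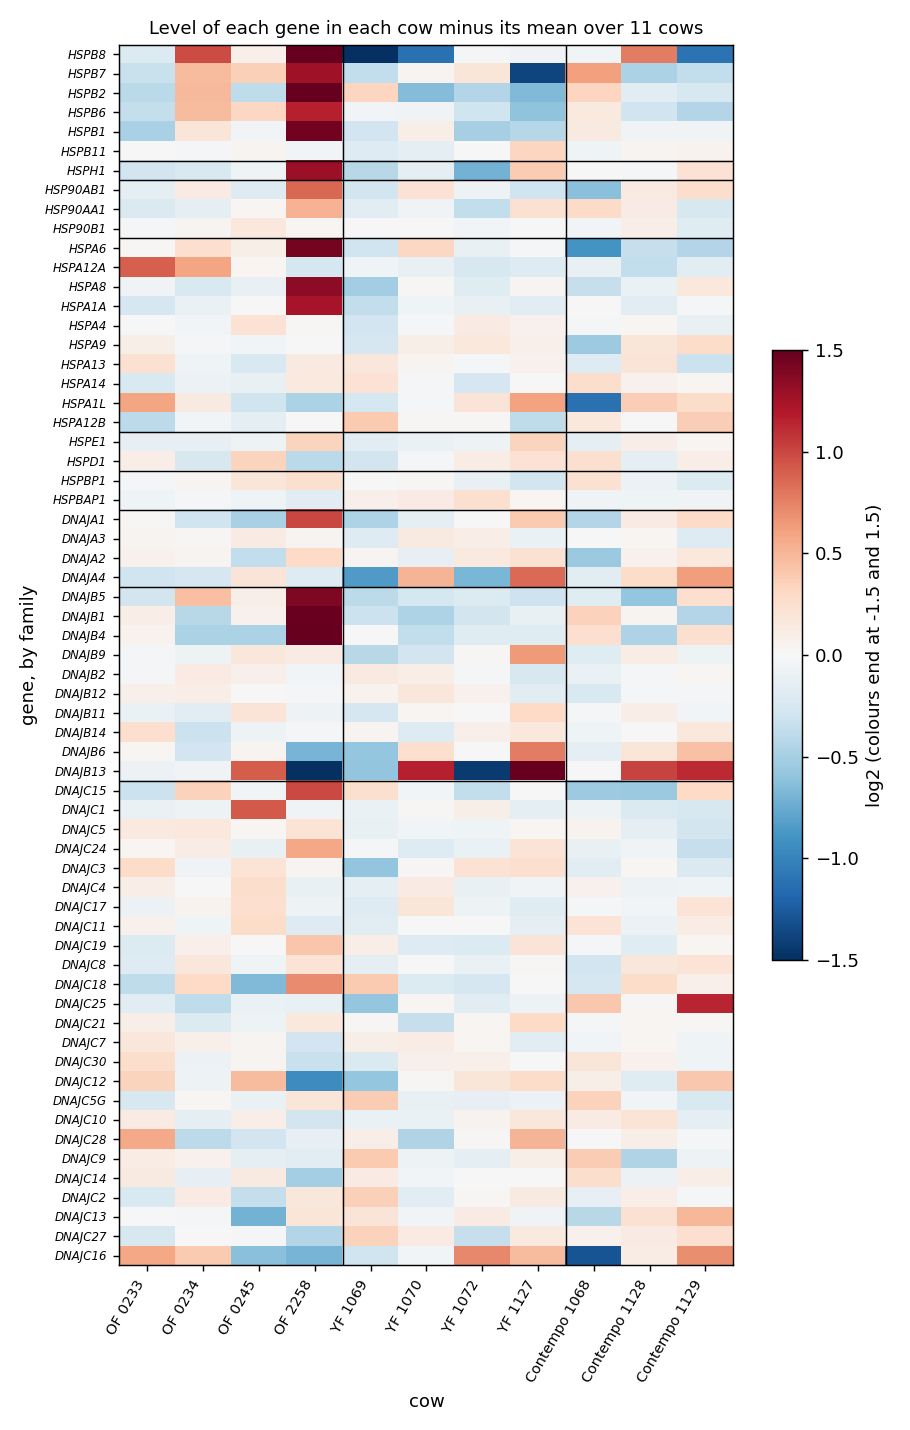
Log2 level of each of the 63 tested genes in each of the 11 cows minus the gene's mean over them, with genes grouped by family from the small heat shock genes at the top to DNAJC at the bottom and colours ending at -1.5 and 1.5. The column of OF 2258 holds dark red cells, among them those of HSPB8, HSPB7, HSPB2, HSPB1, HSPH1, HSPA6, HSPA8, HSPA1A, DNAJB5, DNAJB1 and DNAJB4. It also holds the dark blue cell of DNAJB13, and the DNAJC rows are pale in most cows.

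Contemporary cows were used as a further group of cows at the same stage. Against YF, limma called 606 of 19993 transcripts at an unadjusted p of 0.05 (3.03%) and 3 of 72 member transcripts (4.17%), and against OF it called 911 of 19914 transcripts (4.57%) and 3 of 72 members (4.17%). After Benjamini-Hochberg adjustment limma called 0 transcripts (0%) in both. Both comparisons share the contemporary cows, and the members called were HSPA6, DNAJC25 and DNAJC6 in each. With the slide as a block 0 members were called against YF, and HSPA6 and DNAJC25 were called against OF. HSPA6 was at -5.25, -4.70 and -4.80 in contemporary cows, below all OF and all YF, with log2 differences of -0.53 from YF and -1.01 from OF (exact permutation p = 0.0571 in both, where 0.0286 is the smallest possible). DNAJC25, a membrane J-domain protein, was at -1.46, -1.85 and -0.73 in contemporary cows, between -2.25 and -1.97 in OF and between -2.45 and -1.85 in YF, with a log2 difference of 0.72 from both. Contemporary 1129 held the highest level of DNAJC25, and without her 0 members were called against OF and 1 against YF. DNAJC6, the auxilin that uncoats clathrin vesicles, was at -5.98, -6.75 and -3.60 in contemporary cows and well above background in 2 OF, 2 YF and 3 contemporary cows, so that it was tested only through the group where it is high, and its log2 differences of 1.74 and 1.73 rest largely on 1129 and on values near background. Without DNAJC6 the count in each comparison was 2. The share of all transcripts called with the slide block or without 1129 is not given here, so those member counts are a description only. For HSPB8 the contemporary mean of 3.14 lay between those of YF (2.56) and OF (4.08), with exact permutation p of 0.400 and 0.343.

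The co-chaperones and regulators outside the symbol rule were examined as a list of 40 genes, 36 of them tested. Between OF and YF 1 of the 36 was higher at an unadjusted limma p of 0.05 and 0 were lower. Of all tested transcripts 2.42% reached that p in either direction. Of the 36, 24 had a log2 difference above 0, against 51.7% of all tested transcripts, and their median was 0.07 against 0.01. The gene at that p was FKBP5, an HSP90 co-chaperone induced by steroid hormones, at 3.27, 3.30, 3.13 and 3.81 in OF and at 2.69, 2.69, 3.01 and 2.99 in YF. All OF exceeded all YF, as they did in 0.931% of all tested transcripts. The log2 difference was 0.53 (unadjusted limma p = 0.018, adjusted p = 0.999, exact permutation p = 0.0286). FKBP5 was named for its p among the 36, so its p-values are a description only. Its log2 difference was 0.39 without 2258 and 0.33 with the smooth muscle score as a covariate, where it no longer reached an unadjusted limma p of 0.05. BAG3, the partner of HSPB8, was at 3.63, 3.54, 3.52 and 3.02 in OF and at 4.11, 3.77, 3.44 and 3.87 in YF, a log2 difference of -0.37 (exact permutation p = 0.114). In contemporary cows BAG3 was at 3.64, 3.05 and 3.48. It was lowest in 2258, the cow with the highest HSPB8, with contemporary 1128 nearly level. BAG2, an inhibitor of the ubiquitin ligase STUB1, was at 1.47, 3.84, 1.67 and 5.73 in OF and between 1.445 and 1.996 in the 7 YF and contemporary cows. It stood out in OF 0234 and 2258, and its log2 difference of 1.48 was -0.13 with the smooth muscle score as a covariate. CRYAB, a small heat shock protein with another kind of symbol whose gene lies 988 bases from HSPB2 on chromosome 15, had a log2 difference of 1.05 and was called by FCROS. Without 2258 its log2 difference was 0.42 and with the smooth muscle covariate it was 0.06. Its level and that of HSPB2 had r = 0.94 over the 11 cows. HSF1 itself had a log2 difference of 0.16 (exact permutation p = 0.171). Of the unfolded protein response genes, 9 of 14 had a log2 difference above 0 with a median of 0.05 and 0 reached an unadjusted limma p of 0.05.

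The genes most like HSPB8, taken as those with the highest Pearson correlation over the 11 cows after the group means were subtracted, were WDR73 (r = 0.94), XBP1 (0.90), PDLIM4 (0.89), BTC (0.89) and LBH (0.89), out of 17801 transcripts with a symbol. XBP1, a transcription factor of the unfolded protein response, had a log2 difference between OF and YF of 0.32 (exact permutation p = 0.086). This is a ranking over 11 arrays, and the probes share those arrays.

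The probes and transcripts of a gene did not always give the same sign. Of the 71 tested members, 17 had probes whose log2 differences had opposite signs, and the largest gap between the probes of a member was 0.94. Among the 9 genes with several transcripts, the second transcript of HSPB1 had a log2 difference of 0.27 and that of DNAJB5 of 0.42, beside 0.55 and 0.71 for those given above. Not tested, for want of signal in every cow of a group, were 10 transcripts of the genes HSPA4L, HSPB3, HSPB9, DNAJB3, DNAJB7, DNAJB8, DNAJC5B, DNAJC6 and DNAJC22.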

How the data were processed

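Per the file headers, the authors deposited the Feature Extraction 10.7.3.1 output of 12 one-colour (Cy-3) arrays, with a background-corrected spot intensity that was not normalized between arrays. The array's annotation uses UMD3.1. Here log2 of that intensity minus the array's 75th percentile was taken, 66 probes with an outlier flag were left out, and probes were averaged per transcript (26323 transcripts). Groups came from the labels. OF and YF, and contemporary cows with each, were tested against each other by limma (version 3.58.1, R version 4.3.3) (two-sided, Benjamini-Hochberg over all transcripts tested, threshold 0.05) on transcripts well above background on every array of a group; FCROS used 16 pairwise ratios, a trim of 0.25, f-values beyond 0.025 and 0.975, and a fold of 1.5. Exact permutation tests were two-sided. Limma was tested on simulated data. The arrays lay on 2 slides, tested as a block. No normalization is named in the study's methods, and the number of arrays limits the precision. The limma and permutation p-values set a difference against the spread between cows, which also holds differences between biopsies and arrays. Since OF and YF are clones of a single donor, it is not the spread between unrelated cows.

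Named were members at an unadjusted p of 0.05, the 6 highest and 6 lowest, 25 fixed genes, and up to 3 each way in comparisons with contemporary cows; HSPA12A, HSPA4L, DNAJB4, DNAJC5, HSPBAP1 and others were named after their values were seen. The members and lists were chosen with earlier results of these data known. Alternatives were quantile normalization, normexp (offset 50), median centring, the brightest probe, no dim-probe filter, a block for the slide, a fit of all 3 groups, the smooth muscle score as a covariate, cow 1111 included, no trimming, each cow left out, and, added after the data were seen, OF 0234 and 2258 both left out.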

Additional observations from a re-analysis of the deposited data

Results flagged for a closer look

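Among 60 groups of 4 cows, the OF and the YF in each of 28 named genes and in the smooth muscle and ciliated cell scores, 4 had a cow far from the rest by Dixon's ratio of the gap to the nearest cow over the range, which chance alone gives in about 1 in 20 groups. All 4 were OF 2258. HSPA1A was at 2.98 there, with the nearest OF at 1.74, and HSPH1 at 3.38, with the nearest at 2.04. HSPA8 was at 5.17, with the nearest at 3.78. HSPE1 was at 3.21, with the nearest at 2.80, although YF 1127 was at 3.20 and so level with it. The first 3 were above every other cow by 0.90 to 1.24 on the log2 scale.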

How the results depend on the processing

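Depth was not counted on these arrays, and signal over background and 4 cows a group limited what could be seen. The number of members with an adjusted limma p of 0.05 was 0 under every alternative run. For the counts that follow, the share of all transcripts called is not given under each alternative. The counts describe how far the calls move and are no result about the members. At an unadjusted p, the OF against YF count of 1 was 3 with the brightest probe (HSPB8 and DNAJB5), 2 with all 3 groups in 1 fit, 2 with the smooth muscle covariate and 0 with the slide as a block, and ranged from 0 (without YF 1069 or YF 1070) to 5 (without OF 0233) when single cows were left out. The FCROS count of 4 ranged from 2 (without OF 2258) to 6 and was 0 without OF 0234 and 2258. Against YF the contemporary count of 3 was 4 with median centring (DNAJB5 in addition), 1 with normexp, 1 with the covariate and 0 with the slide as a block, and ranged from 0 (without YF 1072) to 3 when single cows were left out; against OF it was 1 with normexp and ranged from 0 (without contemporary 1129) to 3. Named genes whose log2 difference exceeded its standard error and then changed sign were, with the covariate, HSPB2 (-0.0864), DNAJB6 (0.00198), HSPA1A (-0.0339), HSP90AB1 (-0.0845) and HSPB1 (-0.0265), and, without both OF, HSPB2 (-0.0346) and HSP90AB1 (-0.0607), and among those within their standard error DNAJB13 (0.62) and DNAJA1 (-0.21) with the covariate and HSPD1 (0.21) without both OF; the cause was not tested. Over the 28 named genes 394 of 448 values kept their sign and 54, in 16 genes, did not. The scalings moved the median of all transcripts by at most 0.02. No paired analysis was possible because the groups share no replicate numbers.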
